A study of Mus musculus with 8 samples.

Results

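The 33 genes described here encode enzymes of fatty acid beta-oxidation. They were chosen by name: the symbols of a fixed list were looked up in the authors' table of rlog values and joined by gene ID to their count table of 45777 genes, and all 33 were found. By the usual location of the protein, 19 members are mitochondrial, 5 are peroxisomal and 4 occur in both organelles, and the remaining 5 are long-chain acyl-CoA synthetases, which activate fatty acids before either pathway. All 33 passed the filter on low counts that left 16750 genes for testing. The lowest count of any member in any library was 18.

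Beta-oxidation shortens a fatty acid by repeated rounds of oxidation, hydration, a further oxidation and thiolytic cleavage, and each round releases acetyl-CoA. A fatty acid is first joined to coenzyme A by an acyl-CoA synthetase. Mitochondria oxidise most long-, medium- and short-chain acyl groups and pass the electrons of the first step to the respiratory chain, whereas peroxisomes shorten very long and branched chains with oxidases that hand the electrons to oxygen. In CD8+ T cells, which kill infected and tumour cells, fatty acid oxidation is known for its part in memory cells, while freshly activated effector cells rely more on glycolysis. PGC-1alpha, the protein of Ppargc1a, coactivates PPAR and ERR nuclear receptors, whose known target genes include many enzymes of this pathway.

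The counts came from poly(A) RNA of primary CD8+ T cells taken from the lymph nodes and spleens of C57BL/6 mice. All cells, those of the vehicle group included, had their T cell receptor stimulated with antibodies to CD3 and CD28, and were kept for 48 hours with 1 agent. The 4 groups of 2 libraries each received EnPGC-1, SGC-CBP30 (which blocks the acetyl-lysine-binding bromodomain of CBP and p300), Ctrl PIP, which its name marks as a control compound, or the vehicle DMSO. The study's title concerns an epigenetic induction of mitochondrial biogenesis. Comparisons with DMSO set a compound against the vehicle. The others set 2 compounds against each other, so that a difference there can stem from either. No doses are in the labels, so compounds are compared at unknown relative doses. Whether the 2 libraries of a group stem from different mice or cultures is not said, and p-values therefore speak only of the scatter among these libraries, possibly a technical one.

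Total counts ranged from 38890043 to 55491261 per library. Levels are given in CPM, the count scaled to a fixed total by the TMM library size. The summed CPM of 8 T cell markers (Cd3d, Cd8a, Lck and others) was 3652 to 5242. Only Cd8a and Cd8b1 among them set CD8 apart from CD4 T cells, with 904 to 1241 CPM and 663 to 1114 CPM. The 3 CD4 T cell markers summed to 4.998 to 25.7, the 8 B cell markers to 18.6 to 53.6 and the 8 myeloid markers to 7.78 to 23.0. The 4 NK cell markers (1 of them at 0 throughout) summed to 0.0928 to 3.04 and the 5 erythroid and platelet markers to 1.90 to 42.0. B cell markers summed to 53.6 and 45.2 CPM with EnPGC-1, 23.4 and 18.6 CPM with SGC-CBP30, 37.5 and 22.5 CPM with Ctrl PIP, and 50.9 and 38.6 CPM with DMSO. Replicate 1 of EnPGC-1 and replicate 1 of DMSO were the highest in the CD4 T cell markers, 25.7 CPM with EnPGC-1 and 25.5 CPM with DMSO, against at most 12.3 CPM elsewhere. They were also the highest in the sum of the erythroid and platelet markers, 42.0 CPM with EnPGC-1 and 21.3 CPM with DMSO, against at most 10.9 CPM elsewhere. The platelet genes Pf4 and Ppbp carried this order, with Pf4 at 24.0 and 0.539 CPM with EnPGC-1 and 11.4 and 0 CPM with DMSO. The haemoglobin genes Hbb-bs and Hba-a1 were instead higher in replicate 2 of both groups. Hbb-bs had 4.44 and 6.76 CPM with EnPGC-1 and 1.47 and 4.15 CPM with DMSO. The part of these cell types in the results was not tested. Replicate 1 of EnPGC-1 and of DMSO stood far apart from replicate 2 of its group. On the first principal component of all genes (49.6% of the variance) replicates 1 and 2 lay at -109.7 and 38.1 with EnPGC-1 and at -68.9 and 89.6 with DMSO. The remaining libraries lay at -22.7 and 3.7 with SGC-CBP30 and at 47.5 and 22.4 with Ctrl PIP. Across genes, the deviation of a gene from its mean was related to transcript length, with Spearman's rho of 0.50 and -0.55 with EnPGC-1, 0.56 and 0.51 with SGC-CBP30, -0.54 and -0.20 with Ctrl PIP, and 0.59 and -0.64 with DMSO. A positive value means that long transcripts were relatively high in that library. Its part in the results below was not tested as a cause. Results with an offset for length and GC content stand beside only some of them, and other values moved too. For EnPGC-1 against DMSO the log2 fold changes of Hsd17b10, Echs1, Acaa2 and Etfa were -0.28, -0.13, -0.11 and -0.24. With the offset they were 0.039, 0.072, 0.066 and -0.037. Not every member moved, such as Hadha with -0.090 without and -0.11 with the offset. In such bulk samples fewer cells of a type and less RNA per cell cannot be told apart.

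No member passed the adjusted threshold of 0.05 in any of the 6 comparisons by edgeR's quasi-likelihood test on all 8 libraries, and no gene of the 16750 tested did. The smallest adjusted edgeR p of any member was 0.812. DESeq2's Wald test and limma on the authors' rlog values also called 0 members. At an unadjusted edgeR p under 0.05, Acad10 alone among the members was found, higher with EnPGC-1 and with SGC-CBP30 than with Ctrl PIP and than with DMSO. The members' median log2 fold change lay between -0.056 and 0.053 in the 6 comparisons. By class, all 5 peroxisomal members had a positive and all 5 acyl-CoA synthetases a negative log2 fold change with EnPGC-1 against DMSO and against Ctrl PIP, and none of these passed the test. Against DMSO, 4 of 5 peroxisomal members stayed positive without the first EnPGC-1 library or either DMSO library and 3 without the second EnPGC-1 library. In the same comparison 2 of 5 synthetases were positive without the second EnPGC-1 or the first DMSO library, and 1 without the second DMSO library. Against Ctrl PIP, 4 of 5 peroxisomal members were positive without the second EnPGC-1 or the first Ctrl PIP library, and 2 of 5 synthetases without the second EnPGC-1 library. The 19 mitochondrial members had median log2 fold changes of -0.11 and -0.073 in these comparisons, 7 and 5 of them above 0. Against DMSO, 15 of these 19 were above 0 without the first EnPGC-1 library and 18 without the second DMSO library, but 3 without the second EnPGC-1 or the first DMSO library. Against Ctrl PIP, 15 were above 0 without the first EnPGC-1 library, 3 without the second and 9 without the first Ctrl PIP library. With the offset for length and GC content 11 lay above 0 against DMSO and 12 against Ctrl PIP, so the side on which most of these members lie depends on that setting and on single libraries.

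**Figure D1:**
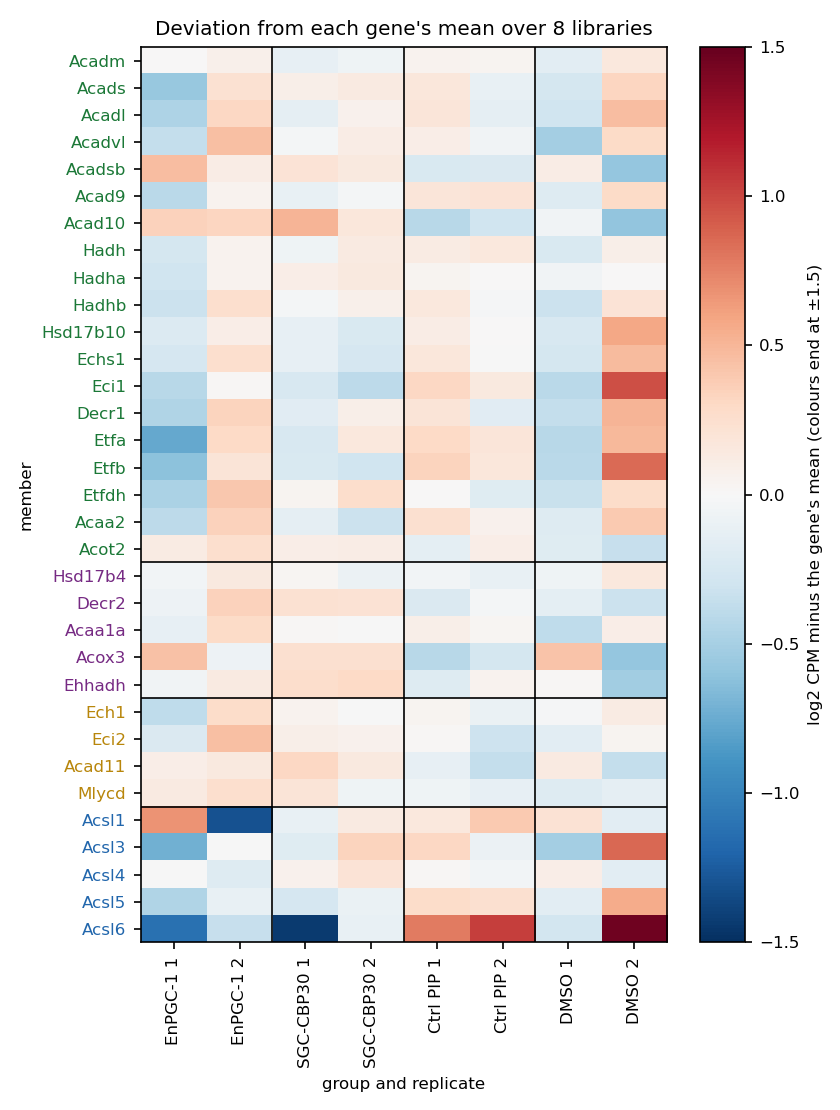
Deviation of each of the 33 members (rows, grouped as mitochondrial, peroxisomal, both and acyl-CoA synthetases from top to bottom) from its own mean log2 CPM in the 8 libraries (columns). The mitochondrial block changes colour between replicates 1 and 2 of EnPGC-1 and of DMSO, and Acad10 is above its mean in all 4 EnPGC-1 and SGC-CBP30 libraries.

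Of the 33 members, 30 averaged at least 10 CPM over the 8 libraries. The highest library exceeded the lowest by less than 2-fold in 23 members, with a median ratio of 1.76 and a range of 1.2 for Hsd17b4 to 7.46 for Acsl6. Levels of different genes were compared per kilobase of the gene's longest protein-coding transcript, which need not be the form expressed here. On this scale Etfb was the most abundant with a mean of 68.0 CPM per kilobase. It was followed by Hadhb with 60.1, Etfa with 52.4, Acadl with 52.0, Acsl5 with 50.6 and Ech1 with 50.3 CPM per kilobase. These neighbours differed by less than the spread of each gene over the libraries. The class medians of the level were 26.7 CPM per kilobase for the mitochondrial, 15.7 for the peroxisomal, 19.0 for the dually located members and 3.27 for the synthetases. The lowest member was Acsl6 with 0.202 CPM per kilobase.

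**Figure D2:**
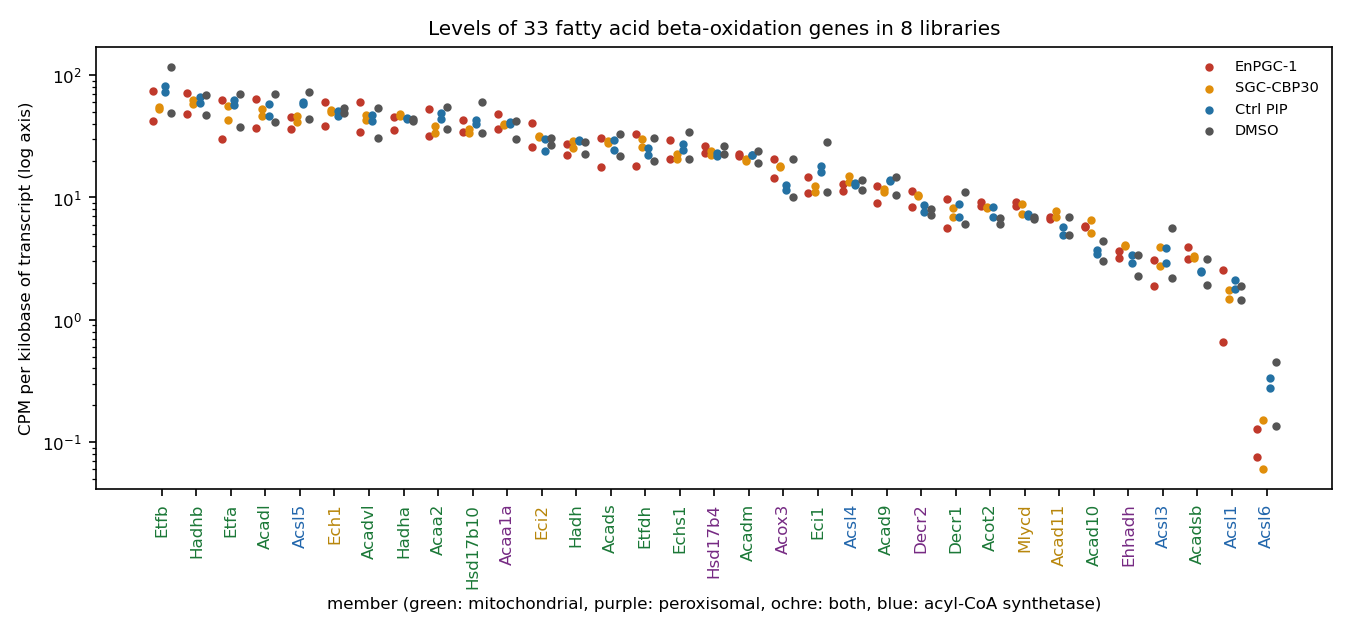
Level of each member in each library, in CPM per kilobase of transcript on a log axis, in the order of the mean and coloured by group. Points are single libraries; Etfb, Hadhb, Etfa and Acadl stand at the top and Acsl6 at the bottom.

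The acyl-CoA synthetases, which activate long-chain fatty acids, were the class with the lowest relative levels after EnPGC-1. All 5 had a negative log2 fold change against DMSO (median -0.51) and against Ctrl PIP (median -0.44). Acsl5, a synthetase of the endoplasmic reticulum and the outer mitochondrial membrane, carried most of the class's reads. Acsl5 had 154 and 195 CPM with EnPGC-1, 176 and 196 CPM with SGC-CBP30, 255 and 247 CPM with Ctrl PIP, and 187 and 309 CPM with DMSO. Both EnPGC-1 libraries lay below both Ctrl PIP libraries, and they overlapped DMSO, whose own libraries differed by 0.72 on the log2 scale. The Acsl5 log2 fold change with EnPGC-1 was -0.51 (SE 0.28) against DMSO and -0.53 (SE 0.28) against Ctrl PIP, and with SGC-CBP30 it was -0.42 (SE 0.28) against DMSO and -0.43 (SE 0.28) against Ctrl PIP. Acsl6, known from brain and red cell precursors, was near the limit of detection, with 18 to 132 reads per library. Acsl6 had 0.437 and 0.743 CPM with EnPGC-1, 0.350 and 0.877 CPM with SGC-CBP30, 1.62 and 1.95 CPM with Ctrl PIP, and 0.785 and 2.61 CPM with DMSO. The libraries of EnPGC-1 lay below those of both Ctrl PIP and DMSO without overlap. Against DMSO the nearest pair was 0.743 against 0.785 CPM, from 40 reads with EnPGC-1 and 33 reads with DMSO, too few to tell these 2 libraries apart. The Acsl6 log2 fold change with EnPGC-1 was -1.52 (SE 0.74) against DMSO and -1.59 (SE 0.74) against Ctrl PIP. For SGC-CBP30 the Acsl6 log2 fold change was -1.47 (SE 0.74) against DMSO and -1.54 (SE 0.74) against Ctrl PIP, with both libraries below Ctrl PIP and an overlap with DMSO.

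The rest of the synthetases gave no separation between EnPGC-1 and a control. Acsl4 had 67.9 and 59.8 CPM with EnPGC-1, 71.3 and 78.6 CPM with SGC-CBP30, 69.2 and 66.2 CPM with Ctrl PIP, and 73.0 and 60.9 CPM with DMSO. Acsl4 prefers arachidonic acid and is known for its part in ferroptosis, and its groups overlapped in both comparisons, with a log2 fold change of -0.068 (SE 0.19) against DMSO and -0.084 (SE 0.19) against Ctrl PIP. It lay lower in both EnPGC-1 libraries than in both SGC-CBP30 libraries, by -0.23 (SE 0.19) on the log2 scale. Acsl3 had 7.43 and 12.2 CPM with EnPGC-1, 10.8 and 15.4 CPM with SGC-CBP30, 15.2 and 11.5 CPM with Ctrl PIP, and 8.61 and 22.2 CPM with DMSO. Acsl3 serves lipid droplet formation, and its log2 fold change with EnPGC-1 was -0.65 (SE 0.49) against DMSO and -0.44 (SE 0.49) against Ctrl PIP. Acsl1 had 10.01 and 2.54 CPM with EnPGC-1, 5.80 and 6.88 CPM with SGC-CBP30, 7.02 and 8.25 CPM with Ctrl PIP, and 7.30 and 5.65 CPM with DMSO. The EnPGC-1 libraries were the highest and the lowest of all 8 for Acsl1, the main synthetase of heart and fat, and the log2 fold change was -0.047 (SE 0.59) against DMSO and -0.29 (SE 0.59) against Ctrl PIP.

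The promoter of Acsl6 is shown because it was the only one among the 29 members with a promoter window in RefSeq that held TNAAGGTCA, the extended motif of the ERR receptors. It lies upstream of the gene's start, on the forward strand of chr11:54303574-54303804 in GRCm38.p6, and inside the record of the long noncoding gene Gm51861. Capitals mark the match, which stands on the opposite strand and begins at base -148, counted back from the first base of the gene's RefSeq record. A further AGGTCA, left in lower case, begins at base -170 on the opposite strand.
Acsl6 promoter: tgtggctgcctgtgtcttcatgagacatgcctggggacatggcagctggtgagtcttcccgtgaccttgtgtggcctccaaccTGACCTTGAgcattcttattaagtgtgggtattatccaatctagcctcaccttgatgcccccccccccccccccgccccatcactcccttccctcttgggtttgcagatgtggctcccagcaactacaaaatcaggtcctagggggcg
TNAAGGTCA was searched on both strands and contains AGGTCA, the hexamer that nuclear receptors bind. It was present in 3.45% of members' windows and in 1.43% of all 27025 genes with a window. AGGTCA itself was present in 4 members (13.8%), Acadm, Acadvl, Echs1 and Acsl6, and in 18.1% of all genes.

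The first oxidation of the mitochondrial spiral is made by acyl-CoA dehydrogenases that differ in chain length. Acadm, the medium-chain enzyme, was among the steadiest members. Acadm had 44.4 and 46.6 CPM with EnPGC-1, 40.7 and 42.1 CPM with SGC-CBP30, 45.8 and 45.6 CPM with Ctrl PIP, and 39.5 and 49.4 CPM with DMSO. All 4 groups lay close together, and the log2 fold change with EnPGC-1 was 0.033 (SE 0.18) against DMSO and -0.007 (SE 0.18) against Ctrl PIP. Both EnPGC-1 libraries exceeded both SGC-CBP30 libraries by a small margin, 0.14 (SE 0.18) on the log2 scale. Acadvl had 73.9 and 129.9 CPM with EnPGC-1, 92.8 and 102 CPM with SGC-CBP30, 102 and 91.5 CPM with Ctrl PIP, and 66.9 and 116 CPM with DMSO. Acadvl, the very-long-chain enzyme of the inner membrane, was high in the second library of EnPGC-1 and of DMSO and low in the first of each, and the groups overlapped. The Acadvl log2 fold change with EnPGC-1 was 0.15 (SE 0.35) against DMSO and 0.074 (SE 0.35) against Ctrl PIP. Acadl had 71.0 and 121 CPM with EnPGC-1, 89.0 and 102 CPM with SGC-CBP30, 111 and 89.0 CPM with Ctrl PIP, and 79.5 and 135 CPM with DMSO. The long-chain enzyme Acadl had the same split of replicates, with a log2 fold change of -0.16 (SE 0.35) against DMSO and -0.056 (SE 0.35) against Ctrl PIP. Acads had 33.1 and 57.4 CPM with EnPGC-1, 52.0 and 53.8 CPM with SGC-CBP30, 55.2 and 45.6 CPM with Ctrl PIP, and 40.7 and 61.3 CPM with DMSO. For the short-chain enzyme Acads the lowest and the second highest library were both from EnPGC-1, and the log2 fold change was -0.17 (SE 0.32) against DMSO and -0.16 (SE 0.32) against Ctrl PIP.

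The promoters of Acadm (reverse strand of chr3:153944644-153944893) and Acadvl (reverse strand of chr11:70015429-70015678) are shown as the enzymes of medium and very long chains with an AGGTCA match, from RefSeq in GRCm38.p6. Capitals mark the match, which reads on the opposite strand in Acadm, from base -249, and on the gene's own strand in Acadvl, from base -87.
Acadm promoter: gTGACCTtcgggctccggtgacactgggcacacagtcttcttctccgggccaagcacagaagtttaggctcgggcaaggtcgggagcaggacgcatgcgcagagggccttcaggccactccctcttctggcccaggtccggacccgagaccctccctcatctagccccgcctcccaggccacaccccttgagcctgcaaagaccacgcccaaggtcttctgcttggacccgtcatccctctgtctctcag
Acadvl promoter: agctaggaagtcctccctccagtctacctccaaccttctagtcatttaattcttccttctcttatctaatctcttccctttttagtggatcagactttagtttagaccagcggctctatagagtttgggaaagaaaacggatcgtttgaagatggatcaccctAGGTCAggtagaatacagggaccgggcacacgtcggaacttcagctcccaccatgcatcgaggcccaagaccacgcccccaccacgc
A match is a run of letters and does not show that a receptor binds there. Levels of these members overlapped between EnPGC-1 and DMSO, as given above.

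Acad10, a less studied member of the acyl-CoA dehydrogenase family, was the one member whose EnPGC-1 and SGC-CBP30 libraries all lay above all Ctrl PIP and DMSO libraries. The share of all genes with this order was not counted, so whether it is unusual is not known. Shares for single pairs of groups are given below. Acad10 had 22.2 and 22.0 CPM with EnPGC-1, 24.9 and 19.8 CPM with SGC-CBP30, 13.2 and 14.2 CPM with Ctrl PIP, and 17.0 and 11.6 CPM with DMSO. The means were 22.1 ± 0.181 CPM with EnPGC-1 (SD, n = 2), 22.4 ± 3.66 CPM with SGC-CBP30 (SD, n = 2), 13.7 ± 0.763 CPM with Ctrl PIP (SD, n = 2) and 14.3 ± 3.77 CPM with DMSO (SD, n = 2). Acad10 had a log2 fold change of 0.63 (SE 0.25) with EnPGC-1 against DMSO, with an unadjusted edgeR p of 0.0412 and an adjusted p of 0.998. Against Ctrl PIP the log2 fold change was 0.69 (SE 0.25), with an unadjusted edgeR p of 0.0294 and an adjusted p of 0.812. SGC-CBP30 gave log2 fold changes of 0.65 (SE 0.25) against DMSO and 0.71 (SE 0.25) against Ctrl PIP, with adjusted edgeR p of 0.943 and 0.871. EnPGC-1 and SGC-CBP30 themselves differed by -0.017 (SE 0.25) on the log2 scale, with a 95% interval of -0.61 to 0.58. With the offset for length and GC content Acad10 stood at 0.63 against DMSO and 0.72 against Ctrl PIP for EnPGC-1. The EnPGC-1 value against DMSO kept its sign in all 17 alternative settings and ranged from 0.36 to 0.95. Acad10 shares 41 bases with its neighbour Brap, whose level was 92.8 and 79.2 CPM with EnPGC-1, 89.95 and 80.4 CPM with SGC-CBP30, 67.9 and 70.5 CPM with Ctrl PIP, and 93.9 and 65.6 CPM with DMSO. The strand setting of the counting is not known, and the part of shared reads in the Acad10 values was not tested.

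Acadsb, which acts on short branched chains from isoleucine, had a similar order of groups. Acadsb had 24.2 and 19.0 CPM with EnPGC-1, 20.4 and 19.5 CPM with SGC-CBP30, 15.0 and 15.1 CPM with Ctrl PIP, and 19.0 and 11.8 CPM with DMSO. Both EnPGC-1 libraries and both SGC-CBP30 libraries exceeded both Ctrl PIP libraries, and EnPGC-1 overlapped DMSO. The Acadsb log2 fold change was 0.49 (SE 0.28) against DMSO and 0.52 (SE 0.28) against Ctrl PIP with EnPGC-1 and 0.37 (SE 0.28) against DMSO and 0.40 (SE 0.28) against Ctrl PIP with SGC-CBP30. Acad9, also known as an assembly factor of respiratory complex I, went the other way. Acad9 had 35.6 and 48.6 CPM with EnPGC-1, 43.4 and 46.1 CPM with SGC-CBP30, 53.3 and 54.1 CPM with Ctrl PIP, and 41.0 and 57.3 CPM with DMSO. Its EnPGC-1 libraries lay below those of Ctrl PIP, with a log2 fold change of -0.22 (SE 0.24) against DMSO and -0.35 (SE 0.24) against Ctrl PIP. Acad11, found in both organelles, was higher with EnPGC-1 and SGC-CBP30 than with Ctrl PIP in every library. Acad11 had 23.2 and 23.9 CPM with EnPGC-1, 26.8 and 23.9 CPM with SGC-CBP30, 19.8 and 16.9 CPM with Ctrl PIP, and 23.8 and 16.9 CPM with DMSO. The Acad11 log2 fold change was 0.21 (SE 0.23) against DMSO and 0.36 (SE 0.23) against Ctrl PIP with EnPGC-1 and 0.32 (SE 0.23) against DMSO and 0.47 (SE 0.23) against Ctrl PIP with SGC-CBP30.

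Acox3, the peroxisomal oxidase of branched acyl chains, is the counterpart of these dehydrogenases. Acox3 had 81.7 and 57.1 CPM with EnPGC-1, 71.2 and 71.5 CPM with SGC-CBP30, 45.4 and 50.3 CPM with Ctrl PIP, and 81.3 and 40.3 CPM with DMSO. Both EnPGC-1 libraries and both SGC-CBP30 libraries lay above both Ctrl PIP libraries, whereas the DMSO libraries held the lowest and nearly the highest value of the 8. The Acox3 log2 fold change was 0.19 (SE 0.35) against DMSO and 0.54 (SE 0.35) against Ctrl PIP with EnPGC-1 and 0.23 (SE 0.35) against DMSO and 0.58 (SE 0.35) against Ctrl PIP with SGC-CBP30.

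Electrons of the mitochondrial dehydrogenases pass through the flavoprotein of Etfa and Etfb to the ubiquinone oxidoreductase of Etfdh. Etfa had 41.5 and 86.6 CPM with EnPGC-1, 59.8 and 78.5 CPM with SGC-CBP30, 86.5 and 80.0 CPM with Ctrl PIP, and 52.7 and 98.3 CPM with DMSO. Etfb had 37.7 and 66.2 CPM with EnPGC-1, 49.3 and 47.1 CPM with SGC-CBP30, 72.9 and 65.1 CPM with Ctrl PIP, and 43.8 and 104 CPM with DMSO. Etfa and Etfb were high in the second and low in the first library of both EnPGC-1 and DMSO, so that these groups overlapped. The Etfb log2 fold change was -0.51 (SE 0.44) against DMSO and -0.41 (SE 0.44) against Ctrl PIP with EnPGC-1, and it was -0.19 against DMSO and -0.17 against Ctrl PIP with the offset for length and GC content. For Etfa the log2 fold change with EnPGC-1 was -0.24 (SE 0.43) against DMSO and -0.38 (SE 0.43) against Ctrl PIP. Etfdh had 42.8 and 79.1 CPM with EnPGC-1, 61.7 and 71.6 CPM with SGC-CBP30, 60.0 and 52.7 CPM with Ctrl PIP, and 47.3 and 72.5 CPM with DMSO. Etfdh overlapped in both EnPGC-1 comparisons, with a log2 fold change of 0.026 (SE 0.34) against DMSO and 0.11 (SE 0.34) against Ctrl PIP.

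Hydration and the second oxidation are made in mitochondria by Echs1, Hadh, Hsd17b10 and the alpha subunit of the trifunctional protein, Hadha. Hadha had 142 and 182 CPM with EnPGC-1, 188 and 193 CPM with SGC-CBP30, 181 and 176 CPM with Ctrl PIP, and 169 and 176 CPM with DMSO. The SGC-CBP30, Ctrl PIP and DMSO libraries were close together for Hadha, and both EnPGC-1 libraries lay below both SGC-CBP30 libraries. The Hadha log2 fold change with EnPGC-1 was -0.090 (SE 0.19) against DMSO and -0.14 (SE 0.19) against Ctrl PIP, and against SGC-CBP30 it was -0.24 (SE 0.19). Hadhb had 97.9 and 145 CPM with EnPGC-1, 120.0 and 128 CPM with SGC-CBP30, 136 and 120.4 CPM with Ctrl PIP, and 97.3 and 141 CPM with DMSO. Hadhb, the beta subunit that holds the thiolase, overlapped in both comparisons, with a log2 fold change of 0.032 (SE 0.27) against DMSO and -0.073 (SE 0.27) against Ctrl PIP. The genes of these partner subunits start 272 bases apart and run in opposite directions, so that the promoter window of Hadha (reverse strand of chr5:30154981-30155230, RefSeq in GRCm38.p6) shares 228 bases with that of Hadhb, shown in capitals.
Hadha promoter: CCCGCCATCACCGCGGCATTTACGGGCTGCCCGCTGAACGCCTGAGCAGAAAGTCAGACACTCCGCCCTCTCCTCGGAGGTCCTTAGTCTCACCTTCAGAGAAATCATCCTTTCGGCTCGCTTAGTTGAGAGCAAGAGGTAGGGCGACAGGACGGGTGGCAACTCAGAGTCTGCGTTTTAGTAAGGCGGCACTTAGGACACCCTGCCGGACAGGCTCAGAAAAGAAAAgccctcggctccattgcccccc
Neither of the searched motifs was found in this window. Replicate 2 exceeded replicate 1 by 0.35 for Hadha and 0.57 for Hadhb on the log2 scale with EnPGC-1, and by 0.05 and 0.53 with DMSO. The transcripts differ in length, with 4017 bases for Hadha and 2048 bases for Hadhb, and the part of length was not tested.

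Echs1 had 32.1 and 45.7 CPM with EnPGC-1, 35.1 and 32.3 CPM with SGC-CBP30, 43.0 and 38.2 CPM with Ctrl PIP, and 31.9 and 53.1 CPM with DMSO. Echs1, the short-chain enoyl-CoA hydratase, overlapped between EnPGC-1 and each control, with a log2 fold change of -0.13 (SE 0.30) against DMSO and -0.061 (SE 0.30) against Ctrl PIP. Hadh had 39.6 and 49.1 CPM with EnPGC-1, 45.3 and 51.9 CPM with SGC-CBP30, 51.7 and 53.1 CPM with Ctrl PIP, and 40.6 and 50.6 CPM with DMSO. Hadh, the dehydrogenase of short and medium chains, was lower in both EnPGC-1 libraries than in both Ctrl PIP libraries, and the log2 fold change was -0.039 (SE 0.21) against DMSO and -0.24 (SE 0.21) against Ctrl PIP. Hsd17b10 also acts in isoleucine breakdown and mitochondrial tRNA processing. Hsd17b10 had 34.3 and 42.4 CPM with EnPGC-1, 36.3 and 33.7 CPM with SGC-CBP30, 42.8 and 39.7 CPM with Ctrl PIP, and 33.6 and 59.4 CPM with DMSO. Its second DMSO library was the highest of the 8 and its first DMSO library the lowest, and only SGC-CBP30 and Ctrl PIP did not overlap. The Hsd17b10 log2 fold change was -0.28 (SE 0.29) against DMSO and -0.10 (SE 0.29) against Ctrl PIP with EnPGC-1 and -0.41 (SE 0.29) against DMSO and -0.24 (SE 0.29) against Ctrl PIP with SGC-CBP30. With replicate 1 of both EnPGC-1 and DMSO left out, which leaves 1 DMSO library, the SGC-CBP30 value against DMSO was -0.76. With the offset for length and GC content on all 8 libraries that value was -0.017.

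In peroxisomes the same steps are made by bifunctional enzymes. Hsd17b4 had 62.0 and 70.7 CPM with EnPGC-1, 64.9 and 60.1 CPM with SGC-CBP30, 62.0 and 59.0 CPM with Ctrl PIP, and 60.9 and 71.0 CPM with DMSO. Hsd17b4, the D-bifunctional protein, had the narrowest range of all members, and its log2 fold change with EnPGC-1 was 0.009 (SE 0.18) against DMSO and 0.13 (SE 0.18) against Ctrl PIP. Ehhadh had 9.52 and 10.8 CPM with EnPGC-1, 11.9 and 12.1 CPM with SGC-CBP30, 8.64 and 10.2 CPM with Ctrl PIP, and 10.01 and 6.86 CPM with DMSO. Ehhadh, the L-bifunctional protein and a known PPARalpha target, was higher in both SGC-CBP30 libraries than in any other library. The Ehhadh log2 fold change was 0.51 (SE 0.26) against DMSO and 0.35 (SE 0.26) against Ctrl PIP with SGC-CBP30 and 0.27 (SE 0.26) against DMSO and 0.11 (SE 0.26) against Ctrl PIP with EnPGC-1. Directly between the compounds, EnPGC-1 against SGC-CBP30 gave -0.24 (SE 0.26), with a 95% interval of -0.86 to 0.39.

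Thiolysis releases the acetyl-CoA. Acaa2 had 48.2 and 80.2 CPM with EnPGC-1, 57.9 and 50.7 CPM with SGC-CBP30, 74.5 and 66.4 CPM with Ctrl PIP, and 55.4 and 83.4 CPM with DMSO. Acaa2, the mitochondrial thiolase, overlapped between EnPGC-1 and each control, with a log2 fold change of -0.11 (SE 0.31) against DMSO and -0.14 (SE 0.31) against Ctrl PIP, and both SGC-CBP30 libraries lay below both Ctrl PIP libraries. Acaa1a had 63.6 and 84.4 CPM with EnPGC-1, 70.1 and 68.9 CPM with SGC-CBP30, 73.7 and 70.5 CPM with Ctrl PIP, and 53.1 and 74.2 CPM with DMSO. The peroxisomal thiolase Acaa1a overlapped as well, with 0.22 (SE 0.23) against DMSO and 0.037 (SE 0.23) against Ctrl PIP. Its counts are uncertain to the extent that reads are shared with the near-identical Acaa1b.

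Enzymes of unsaturated chains shift or reduce double bonds. Eci1 had 12.4 and 16.8 CPM with EnPGC-1, 14.1 and 12.7 CPM with SGC-CBP30, 20.5 and 18.4 CPM with Ctrl PIP, and 12.5 and 32.5 CPM with DMSO. Eci1, the mitochondrial enoyl-CoA isomerase, had its single highest library in DMSO, and the log2 fold change with EnPGC-1 was -0.62 (SE 0.43) against DMSO and -0.41 (SE 0.43) against Ctrl PIP. With the offset for length and GC content the Eci1 value against DMSO was -0.27. Decr1 had 16.7 and 28.9 CPM with EnPGC-1, 20.3 and 24.3 CPM with SGC-CBP30, 26.2 and 20.4 CPM with Ctrl PIP, and 17.9 and 32.7 CPM with DMSO. Decr1, the mitochondrial dienoyl-CoA reductase, overlapped, with -0.15 (SE 0.38) against DMSO and -0.029 (SE 0.38) against Ctrl PIP. Decr2 had 18.8 and 25.1 CPM with EnPGC-1, 23.2 and 23.1 CPM with SGC-CBP30, 17.0 and 19.4 CPM with Ctrl PIP, and 18.0 and 15.9 CPM with DMSO. Its peroxisomal counterpart Decr2 was higher in both EnPGC-1 and both SGC-CBP30 libraries than in both DMSO libraries. The Decr2 log2 fold change was 0.37 (SE 0.22) against DMSO and 0.27 (SE 0.22) against Ctrl PIP with EnPGC-1 and 0.45 (SE 0.22) against DMSO and 0.35 (SE 0.22) against Ctrl PIP with SGC-CBP30. Eci2 ranged from 42.2 to 71.4 CPM and Ech1 from 48.6 to 76.7 CPM, both highest in the second EnPGC-1 library, and their log2 fold changes with EnPGC-1 against DMSO were 0.21 (SE 0.26) and -0.072 (SE 0.25).

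The auxiliary members set the supply and release of acyl-CoA. Mlycd decarboxylates malonyl-CoA, the inhibitor of carnitine palmitoyltransferase. Mlycd had 18.0 and 19.5 CPM with EnPGC-1, 18.7 and 15.7 CPM with SGC-CBP30, 15.7 and 15.0 CPM with Ctrl PIP, and 14.3 and 14.9 CPM with DMSO. Both EnPGC-1 libraries lay above both libraries of each control, with a log2 fold change of 0.37 (SE 0.20) against DMSO and 0.29 (SE 0.20) against Ctrl PIP. Acot2 had 18.6 and 20.3 CPM with EnPGC-1, 18.2 and 18.4 CPM with SGC-CBP30, 15.3 and 18.3 CPM with Ctrl PIP, and 15.0 and 13.4 CPM with DMSO. Acot2, a thioesterase of the mitochondrial matrix, was also above both controls in both EnPGC-1 libraries, by a margin of 18.6 against 18.3 CPM at the nearest pair. The Acot2 log2 fold change was 0.46 (SE 0.20) against DMSO and 0.21 (SE 0.20) against Ctrl PIP, and its counts are uncertain to the extent that reads are shared with its paralogs Acot1 and Acot3. Acot3 had 0 CPM in every library, and the sharing of reads was not tested.

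Mitochondrial and peroxisomal members were then set side by side in every library. The summed level of the 5 peroxisomal members was 236 and 248 CPM with EnPGC-1, 241 and 236 CPM with SGC-CBP30, 207 and 209 CPM with Ctrl PIP, and 223 and 208 CPM with DMSO. In this sum, in which abundant members weigh most, all 4 libraries of EnPGC-1 and SGC-CBP30 lay above the 4 of Ctrl PIP and DMSO. That order rests on Acox3, and without this gene the sums of EnPGC-1 and SGC-CBP30 overlap those of the controls. The median deviation of the 5 members from their own means, which weights them equally, did not separate EnPGC-1 from the controls, with -0.050 and 0.15 with EnPGC-1, 0.23 and 0.22 with SGC-CBP30, -0.19 and -0.033 with Ctrl PIP, and -0.064 and -0.32 with DMSO. The 19 mitochondrial members summed to 868 and 1287 CPM with EnPGC-1, 1069 and 1128 CPM with SGC-CBP30, 1205 and 1103 CPM with Ctrl PIP, and 921 and 1358 CPM with DMSO. Here the first libraries of EnPGC-1 and DMSO were the lowest and their second libraries the highest of the 8. The 5 synthetases summed to 239 and 270 CPM with EnPGC-1, 264 and 298 CPM with SGC-CBP30, 348 and 335 CPM with Ctrl PIP, and 277 and 399.8 CPM with DMSO. Both EnPGC-1 libraries were below every library of the controls in this sum, most of which is Acsl5.

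The mitochondrial minus the peroxisomal median log2 fold change was -0.33 for EnPGC-1 against DMSO, -0.33 for SGC-CBP30 against DMSO, -0.21 for EnPGC-1 against Ctrl PIP and -0.41 for SGC-CBP30 against Ctrl PIP. It was -0.12 for Ctrl PIP against DMSO and 0.071 for EnPGC-1 against SGC-CBP30. The pooled SD of this quantity between replicates was 0.35, and most of these values are no larger than that. It pools groups of unequal spread, the narrowest with SGC-CBP30, then Ctrl PIP, EnPGC-1 and, as the widest, DMSO. It is therefore not the spread of any single group. The median mitochondrial deviations were -0.36 and 0.25 with EnPGC-1, -0.11 and 0.089 with SGC-CBP30, 0.15 and 0.005 with Ctrl PIP, and -0.26 and 0.29 with DMSO. They are only a part of this quantity, and the peroxisomal ones are given above. The EnPGC-1 value against DMSO was -0.84 without the first DMSO library and 0.12 without the second. Comparisons against DMSO share the DMSO libraries, and those against Ctrl PIP share the Ctrl PIP libraries, so the values are not independent. With the offset for length and GC content they were -0.23 and -0.26 for EnPGC-1 and SGC-CBP30 against DMSO, and -0.17 and -0.30 against Ctrl PIP. The median transcript length was 2684 bases in the peroxisomal and 2047 bases in the mitochondrial class.

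**Figure D3:**
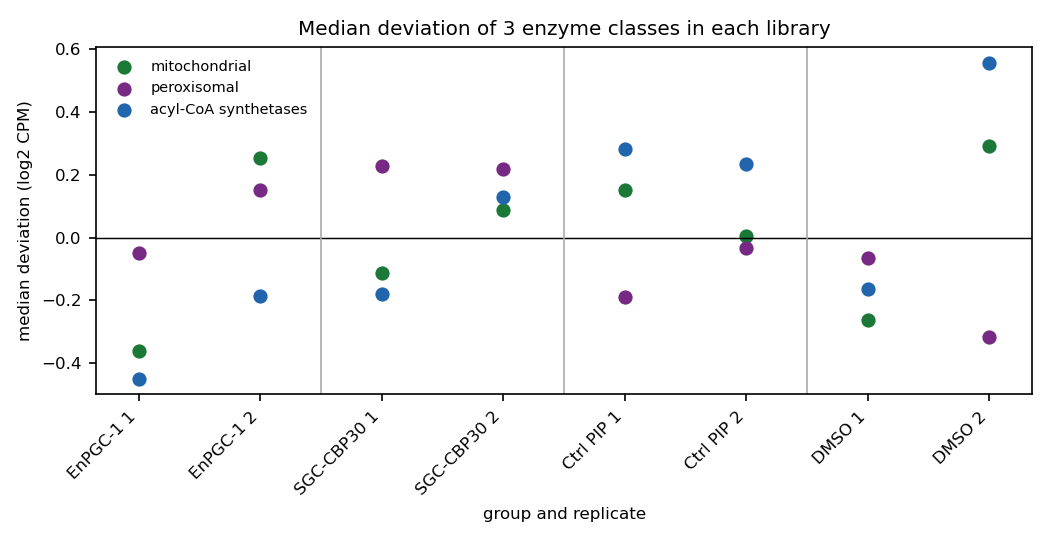
Median deviation from the gene's own mean (log2 CPM) of the mitochondrial (19), peroxisomal (5) and acyl-CoA synthetase (5) members in each library. Mitochondrial medians range from -0.36 to 0.25 within EnPGC-1 and from -0.26 to 0.29 within DMSO, the peroxisomal median of the first EnPGC-1 library (-0.050) lies below that of the second Ctrl PIP library (-0.033), and the synthetase medians are below 0 in both EnPGC-1 libraries and above 0 in both Ctrl PIP libraries.

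For EnPGC-1 against DMSO, 4 members were higher in both EnPGC-1 libraries than in both DMSO libraries (Acad10, Acot2, Decr2 and Mlycd) and 1 was lower (Acsl6). Among all genes tested, 9.83% were separated upward and 9.24% downward, and 0% were called by edgeR in either direction. At an unadjusted edgeR p under 0.05, 1 member was higher, where the share of all genes was 0.8%, and 0 were lower, where it was 1.81%. The log2 fold changes of members ran from -1.52 to 0.63 with a median of -0.047, 15 above 0 and 18 below, while 50.2% of all genes lay above 0 and 49.8% below. DESeq2 called 0.125% of all genes and 0 members. By class, 7 of 19 mitochondrial, 5 of 5 peroxisomal, 3 of 4 dually located members and 0 of 5 synthetases were above 0, with medians of -0.11, 0.22, 0.21 and -0.51. The mitochondrial count ran from 3 to 18 of 19 with single libraries left out and was 11 with the offset for length and GC content. The members' median was 0.19 without the first EnPGC-1 library, -0.28 without the second, and 0.20 without the second DMSO library. With the offset for length and GC content it was 0.072.

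Against Ctrl PIP, EnPGC-1 separated 12 members. Higher in both libraries were Acadsb, Acad10, Acot2, Hsd17b4, Acox3, Acad11 and Mlycd, and lower were Acad9, Hadh, Eci1, Acsl5 and Acsl6. These are 7 and 5 of 33, where 20.7% and 21.7% of all genes were separated upward and downward and edgeR called 0%. At an unadjusted edgeR p under 0.05 there was 1 member higher, where the share of all genes was 1.71%, and 0 lower, where it was 2.77%. The members' median log2 fold change was -0.056, with 14 above 0 and 19 below, and the all-gene median was 0.053, with 54.1% above 0 and 45.9% below. DESeq2 called 0.281% of all genes and 0 members. All 5 peroxisomal and all 4 dually located members had positive values, with medians of 0.13 and 0.29, and 5 of 19 mitochondrial members did, with a median of -0.073. The mitochondrial count ran from 3 to 15 of 19 with single libraries left out and was 12 with the offset for length and GC content. The members' median was 0.18 without the first EnPGC-1 library and -0.34 without the second.

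**Figure D4:**
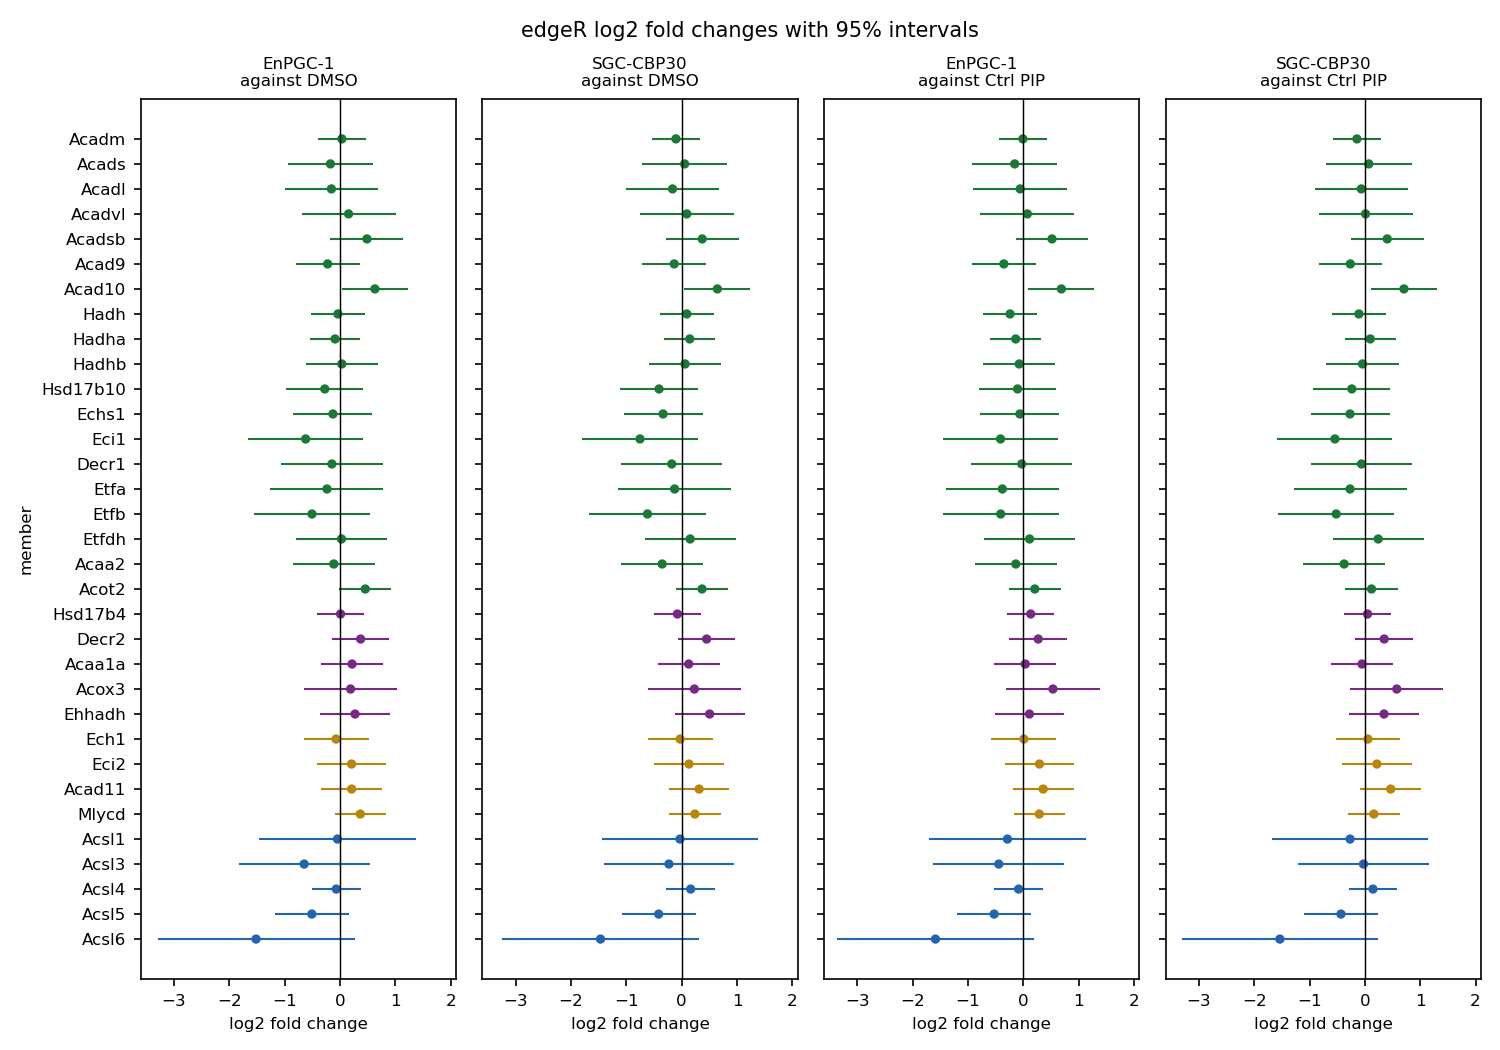
Log2 fold change (edgeR, points) with its 95% interval (lines) of the 33 members in 4 comparisons, coloured as mitochondrial (green), peroxisomal (purple), both (ochre) and acyl-CoA synthetases (blue). Apart from Acad10, every interval includes 0, and Acsl6 has the widest.

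SGC-CBP30 against DMSO had 9 members separated upward, Acadsb, Acad10, Hadha, Acot2, Decr2, Ehhadh, Eci2, Acad11 and Mlycd, and 0 downward. Among all genes 16.2% were separated upward and 14.5% downward, and edgeR called 0%. The median log2 fold change of members was 0.053, with 17 above 0 and 16 below, where 47.2% of all genes lay above 0 and 52.7% below. DESeq2 called 0.436% of all genes and 0 members. The unadjusted edgeR p was under 0.05 for 1 member higher, Acad10, where 1.57% of all genes were, and for 0 lower, where 2.82% of all genes were. Peroxisomal members again had a positive median, 0.23, with 4 of 5 above 0, and the mitochondrial median was -0.10. The members' median was -0.17 without the first DMSO library.

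SGC-CBP30 against Ctrl PIP, the comparison with the closest replicates, separated 10 members upward and 12 downward. The shares of all genes were 31.5% upward and 30.2% downward, so the members' 22 of 33 stood near the background, and edgeR called 0% on all 8 libraries and DESeq2 0.299%, with 0 members. The median log2 fold change was -0.025, with 16 members above 0 and 17 below, where 51% of all genes lay above 0 and 48.5% below. Unadjusted edgeR p under 0.05 was found for Acad10 upward, where the share of all genes was 1.43%, and for 0 members downward, where it was 2.56%. The test on these 4 libraries alone called 5 members, where 15.8% of all genes tested were called. Acad10 was higher by 0.70 on the log2 scale, with an adjusted edgeR p of 0.0296, and Acox3 by 0.57, with an adjusted edgeR p of 0.0206. Etfb was lower at -0.52, Eci1 at -0.55 and Acsl5 at -0.44, with adjusted edgeR p of 0.0255, 0.0427 and 0.0435. Long transcripts were relatively high in both SGC-CBP30 libraries and low in both Ctrl PIP libraries, as given by the rho values above, and this difference and the compounds cannot be told apart in these 4 libraries. With the offset for length and GC content on all 8 libraries, Acad10 stood at 0.65, Acox3 at 0.50 and Acsl5 at -0.53, while Etfb stood at -0.15 and Eci1 at -0.21, and edgeR called 0 members.

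EnPGC-1 against SGC-CBP30 separated 2 members upward, Acadm and Acot2, and 4 downward, Hadha, Ehhadh, Acad11 and Acsl4. Of all genes 13.2% were separated upward and 14.7% downward, edgeR called 0%, and 0 members had an unadjusted edgeR p under 0.05, where 1.1% of all genes were higher and 0.931% lower. The members' log2 fold changes spanned -0.42 to 0.24 with a median of -0.018, 15 above 0 and 18 below, where 52.8% of all genes lay above 0 and 47.1% below. DESeq2 called 0.107% of all genes and 0 members. The widest members, such as Acsl1 with a 95% interval of -1.43 to 1.39, leave room for differences of more than 2-fold either way, and the narrowest, such as Hsd17b4 with -0.34 to 0.52, do not.

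Ctrl PIP against DMSO gave the narrowest range of the 6 comparisons. Hadh, Hadha, Acot2 and Mlycd were separated upward, 4 of 33 where 8.34% of all genes were, and 0 members were separated downward, where 7.83% of all genes were. EdgeR called 0%, and 0 members had an unadjusted p under 0.05, where 0.233% of all genes were higher and 0.364% lower. Members ran from -0.35 for Acox3 to 0.25 for Acot2 on the log2 scale, with a median of 0.015, and the median was 0.30 without the second DMSO library. There were 17 members above 0 and 16 below, where 41.5% of all genes lay above 0 and 58.4% below, and DESeq2 called 0.0299% of all genes and 0 members.

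Replicates of EnPGC-1 and of DMSO differed widely in the members. The median absolute difference between the libraries of a group over the 33 members was 0.45 on the log2 scale with EnPGC-1, 0.12 with SGC-CBP30, 0.16 with Ctrl PIP and 0.54 with DMSO. Over all genes it was 0.56 with EnPGC-1, 0.20 with SGC-CBP30, 0.20 with Ctrl PIP and 0.73 with DMSO. The second library was the higher one for 28 members with EnPGC-1 and for 24 with DMSO. In DMSO the short messages Eci1 and Etfb were higher in the second library by 1.37 and 1.25 on the log2 scale, and the long message Acox3 differed by -1.01, lower in the second library. Acsl6 and Acsl3, which are long as well, were higher in the second DMSO library by 1.68 and 1.36. The largest difference within EnPGC-1 was -1.96, for Acsl1.

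**Figure D5:**
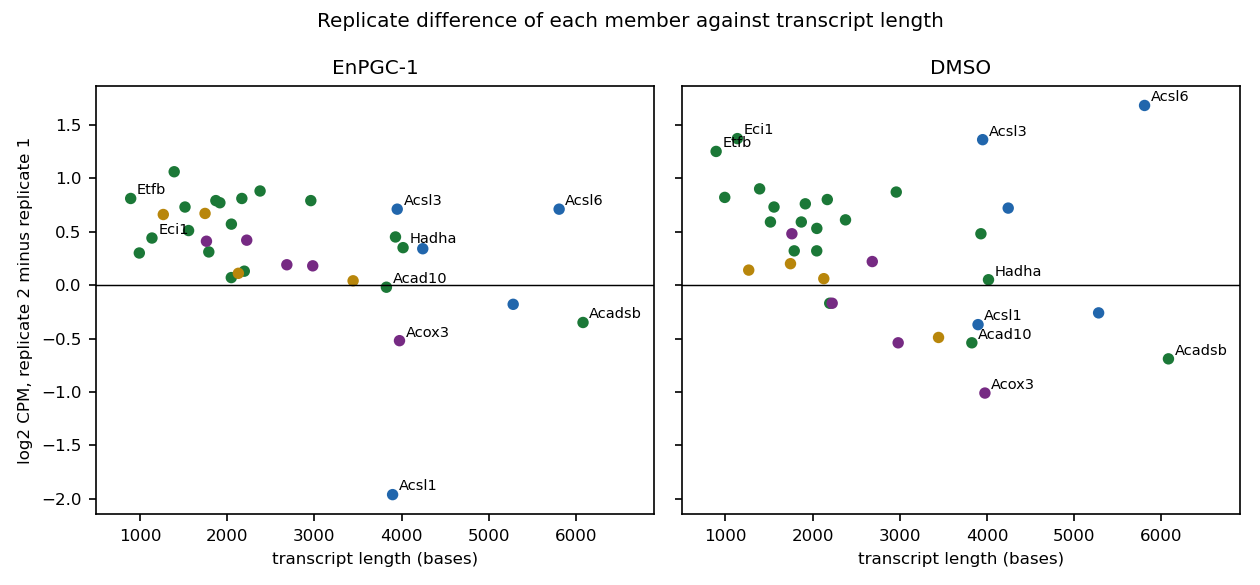
Difference between replicates (log2 CPM, replicate 2 minus replicate 1) of each member against its transcript length in bases, for EnPGC-1 (left) and DMSO (right), coloured by class as in the other plots. Short members such as Etfb and Eci1 lie above 0 in both groups and Acox3 and Acadsb below, while Acsl3 and Acsl6 are long and above 0.

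Genes around the pathway were counted from a list of 62, of which 50 were tested, and edgeR called 0 of them in any comparison. For EnPGC-1 against DMSO, 30 lay above 0 and 20 below, with 0 higher and 3 lower at an unadjusted edgeR p under 0.05, where 50.2% of all genes lay above 0 and 0.8% were higher and 1.81% lower at that p. Against Ctrl PIP, EnPGC-1 had 28 above 0 and 22 below, with 2 higher and 3 lower at that p, where 1.71% of all genes were higher and 2.77% lower. SGC-CBP30 had 4 higher and 4 lower against DMSO, where 1.57% and 2.82% of all genes were, and 0 higher and 3 lower against Ctrl PIP, where 1.43% and 2.56% were. EnPGC-1 against SGC-CBP30 had 0 higher and 1 lower, where 1.1% and 0.931% of all genes were, and Ctrl PIP against DMSO had none in either direction, where 0.233% and 0.364% were. Cpt1a, the carnitine palmitoyltransferase that commits acyl groups to mitochondria, had 154 and 170.1 CPM with EnPGC-1, 153 and 155 CPM with SGC-CBP30, 90.3 and 82.9 CPM with Ctrl PIP, and 145 and 66.1 CPM with DMSO. Both EnPGC-1 libraries lay above both libraries of each control. The Cpt1a log2 fold change with EnPGC-1 was 0.62 (SE 0.35) against DMSO and 0.90 (SE 0.35) against Ctrl PIP. Crot, the peroxisomal carnitine octanoyltransferase, had the same order, with 0.38 (SE 0.25) against DMSO and 0.50 (SE 0.25) against Ctrl PIP. In the list of other peroxisomal genes 10 of 11 lay above 0 for EnPGC-1 against DMSO, with a median log2 fold change of 0.17, and 7 of 11 against Ctrl PIP, with a median of 0.063, and none passed the test. The one below 0 against DMSO was Pecr, and this reductase of enoyl-CoA stood at -1.26 (SE 0.64) for EnPGC-1 against DMSO, with overlapping libraries, and at -1.21 (SE 0.64) against Ctrl PIP. Phyh, which starts the alpha-oxidation of phytanic acid, stood at 0.44 (SE 0.20) for EnPGC-1 against Ctrl PIP.

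Of the 8 tested genes of fatty acid uptake and lipolysis, 4 lay above 0 and 4 below for EnPGC-1 against DMSO, with a median log2 fold change of -0.057, and 5 above and 3 below against Ctrl PIP, with a median of 0.10. Those with the smallest p, Fabp5 and Mgll, were both lower with EnPGC-1. Above 0 against DMSO were the lysosomal lipase Lipa at 0.49 (SE 0.35), the fatty acid transporters Slc27a1 at 0.34 (SE 0.28) and Slc27a4 at 0.22 (SE 0.18), and Lipe, the hormone-sensitive lipase, at 0.056 (SE 0.24), all 4 named after their values were seen. Fabp5, a fatty acid carrier, had 10.4 and 14.3 CPM with EnPGC-1, 13.7 and 18.7 CPM with SGC-CBP30, 29.5 and 36.5 CPM with Ctrl PIP, and 23.9 and 35.8 CPM with DMSO. Its log2 fold change with EnPGC-1 was -1.27 (SE 0.31) against DMSO and -1.42 (SE 0.31) against Ctrl PIP, with adjusted edgeR p of 0.998 and 0.812. Mgll, which splits monoglycerides, had 0.51 and 0.78 CPM with EnPGC-1, 0.479 and 0.709 CPM with SGC-CBP30, 2.08 and 2.25 CPM with Ctrl PIP, and 1.64 and 1.25 CPM with DMSO. The Mgll log2 fold change with EnPGC-1 was -1.15 (SE 0.46) against DMSO and -1.74 (SE 0.46) against Ctrl PIP. Of the 11 regulators tested, 5 lay above 0 for EnPGC-1 against DMSO and 4 against Ctrl PIP. Acaca, the acetyl-CoA carboxylase that makes malonyl-CoA, had 49.1 and 33.9 CPM with EnPGC-1, 60.9 and 67.8 CPM with SGC-CBP30, 65.1 and 72.7 CPM with Ctrl PIP, and 78.6 and 61.5 CPM with DMSO. Its EnPGC-1 libraries were the lowest of the 8, with log2 fold changes of -0.76 (SE 0.24) against DMSO and -0.73 (SE 0.24) against Ctrl PIP. Pprc1, a relative of PGC-1alpha, had a log2 fold change of -0.46 (SE 0.33) for EnPGC-1 against DMSO. Among 12 branched-chain, propionate and ketone enzymes, 6 lay above 0 in each of these comparisons. Bdh1 stood at -0.49 (SE 0.27) and Ivd at 0.29 (SE 0.17) for EnPGC-1 against DMSO. Against Ctrl PIP, Bdh1 stood at -0.57 (SE 0.27) and Oxct1 at -0.34 (SE 0.21). Ppargc1a, the gene of PGC-1alpha, was hardly detected, with 1.80 and 0.186 CPM with EnPGC-1, 0 and 0.056 CPM with SGC-CBP30, 0 and 0 CPM with Ctrl PIP, and 0.333 and 0 CPM with DMSO, and no fold change is given at this depth.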

How the data were processed

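The authors deposited whole-number counts per gene under Entrez IDs, 1 column per library, and regularized log2 (rlog) values of 16442 genes. Per the submitters' processing notes, HISAT2, StringTie and DESeq2 were used with mm10 (versions and roles are not stated). Libraries were made with a strand-marking poly(A) kit, per the labels' protocols. No source used here gives the counter, its strand setting or the annotation. Of the members, 6 overlap a protein-coding gene, and reads could be shared there and between near-identical copies. There were 0 columns of other samples. Each header name of the rlog table stands 1 column left of its values.

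Groups and replicate numbers came from the labels. The main test was edgeR's quasi-likelihood test (edgeR 4.0.16, R 4.3.3) on all 8 libraries with TMM scaling, filterByExpr, group means and 4 residual degrees of freedom. It was two-sided, with Benjamini-Hochberg adjustment over all 16750 genes in each comparison and a threshold of 0.05. Log2 CPM used a prior count of 2. On simulated counts for EnPGC-1 against DMSO, the test recovered 0%, 67% and 95% of 200 genes changed 2-, 4- and 8-fold. Genes of low level were not among those changed. The simulated replicates also lacked the length-linked shift of the real ones, so recovery in these data may differ. Intervals cover the spread between libraries as modelled. Of all pairs of libraries, 0 held identical values.

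The members, classes and lists were chosen with earlier results of these data known. Members named with full values were a set of 20, the 4 with the smallest p per direction whose libraries did not overlap, and those called under any alternative. Other genes were the 2 with the smallest p per list, named for EnPGC-1 against DMSO and against Ctrl PIP, except 1 that is not reported here. Alternatives were DESeq2 1.42.0, limma 3.58.1 on the authors' log2 values, DESeq2 size factors, no filter, a block for the replicate number, a fit on just the 4 libraries compared, offsets for transcript length and GC content (mgcv 1.9.3, known for 92.1% of genes tested), the enzymes of both locations counted as peroxisomal, means for medians, and libraries left out. Gene names, positions and promoters came from RefSeq on GRCm38.p6, the assembly called mm10, and matched 99.8% of IDs. Transcript lengths came from GENCODE on the same assembly and are those of the longest protein-coding transcript of a gene, or else of its longest transcript.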

Additional observations from a re-analysis of the deposited data

How the results depend on the processing

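No member was called by edgeR on all 8 libraries, nor under DESeq2, limma, DESeq2 size factors, no filter, length and GC offsets or any single library left out. Every member had at least 18 reads in each library. On simulated counts, with the limits given above, 0% of 2-fold changes were recovered with 2 libraries a group. Acad10 kept its sign for EnPGC-1 and SGC-CBP30 against Ctrl PIP and against DMSO in all 17 alternatives. As its libraries do not overlap in these comparisons, leaving libraries out could hardly change that sign. The sign changed at least once in 26 members for EnPGC-1 against DMSO, 21 for SGC-CBP30 against DMSO, 18 for EnPGC-1 against Ctrl PIP and 15 for SGC-CBP30 against Ctrl PIP.

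With single libraries left out, the members' median log2 fold change ranged from -0.28 to 0.20 for EnPGC-1 against DMSO, -0.17 to 0.17 for SGC-CBP30 against DMSO, -0.13 to 0.30 for Ctrl PIP against DMSO, -0.34 to 0.18 for EnPGC-1 against Ctrl PIP and -0.30 to 0.18 for EnPGC-1 against SGC-CBP30. The mitochondrial minus peroxisomal median ranged from -0.84 to 0.12 for EnPGC-1 against DMSO, -0.80 to 0.003 for SGC-CBP30 against DMSO and -0.44 to 0.36 for Ctrl PIP against DMSO. Against Ctrl PIP this difference stayed below 0, from -0.43 to -0.042 for EnPGC-1 and from -0.59 to -0.23 for SGC-CBP30. For EnPGC-1 against SGC-CBP30 it ranged from -0.20 to 0.13.

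Only the 4 libraries of SGC-CBP30 and Ctrl PIP called 5 members. Without the first library of both DMSO and EnPGC-1, 1 member was called for EnPGC-1 against DMSO, 13 for SGC-CBP30 against DMSO and 5 for SGC-CBP30 against Ctrl PIP. There the median was -0.18 and the mitochondrial minus peroxisomal median -0.80 for SGC-CBP30 against DMSO, and the median was 0.19 for EnPGC-1 against Ctrl PIP. All genes called in the same settings were 6.44%, 37.1% and 13.3%. Without the second library of both, 2 members were called for Ctrl PIP against DMSO, 10 for EnPGC-1 against Ctrl PIP and 3 for SGC-CBP30 against Ctrl PIP, where 13.6%, 29.8% and 10.7% of all genes were. There the median was 0.30 and the mitochondrial minus peroxisomal median 0.36 for Ctrl PIP against DMSO, and the median was -0.34 for EnPGC-1 against Ctrl PIP and -0.29 for EnPGC-1 against SGC-CBP30. Etfb for Ctrl PIP against DMSO turned to 0.66 in this setting, from -0.10 on all libraries. The cause was not tested. Each lone library in these fits is assumed to vary like the other groups.

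No label says that a replicate number marks a shared animal or day. Deviations of same-numbered libraries correlated at 0.67 between EnPGC-1 and DMSO, 0.23 between EnPGC-1 and SGC-CBP30 and 0.23 between SGC-CBP30 and DMSO, but at -0.23, -0.039 and -0.25 between Ctrl PIP and EnPGC-1, SGC-CBP30 and DMSO, so the numbers were not taken as a pairing. With the replicate block 0 members were called in every comparison, and the medians were -0.067, 0.080, 0.025, -0.089, -0.025 and -0.054 for EnPGC-1, SGC-CBP30 and Ctrl PIP against DMSO, EnPGC-1 against Ctrl PIP, EnPGC-1 against SGC-CBP30 and SGC-CBP30 against Ctrl PIP. Counting the enzymes of both locations as peroxisomal gave a mitochondrial minus peroxisomal median of 0.065 for Ctrl PIP against DMSO.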
